A study of Mus musculus with 9 samples.

Results

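Chemokine ligands are small secreted or membrane-anchored proteins that direct the migration of leukocytes. The genes described here are the protein-coding entries of the deposited table whose name starts with Ccl, Cxcl, Xcl or Cx3cl and a digit, which gave 34 of 44806 entries. Each ligand binds G protein-coupled receptors on the cells it attracts, and several ligands share a receptor. In tumours, ligands of Cxcr3 are known for drawing T cells and natural killer (NK) cells, those of Cxcr2 for drawing neutrophils and those of Ccr2 for drawing monocytes. Sources include the tumour cells themselves, macrophages, dendritic cells, neutrophils, activated lymphocytes and stroma.

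The tumours studied grew from MB49, a mouse bladder cancer line, and the tumour cells of every group overexpressed HER2, a receptor tyrosine kinase. Mice had been given Lipo-TriTE, Lipo-BiTE or PBS, with 3 libraries a group. BiTE commonly stands for a bispecific T cell engager, an antibody-derived molecule that joins a T cell to a tumour cell, but the labels spell out no target of either agent. They give no dose, strain or age, describe no group that received a carrier without the agent, and do not say whether each library is from its own animal. The p-values thus reflect variation among these samples, which may be technical. The design text names T cells sorted by CD3 from tumours harvested at the endpoint, whereas titles and protocol describe frozen tumour tissue. Krt8, a keratin of epithelial cells, stood at 158.4 to 294.2 CPM (counts scaled to library size) in Lipo-TriTE, 265.3 to 379.2 in Lipo-BiTE and 451.6 to 477.8 in PBS libraries. Cd3e, which defines T cells, stood at 61.1 to 105.5, 13.21 to 35.28 and 2.815 to 4.743 CPM in the same groups. The libraries are therefore treated as mixtures of cells, in which fewer cells of a type and less RNA per cell cannot be told apart.

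The libraries held 13152783 to 20273548 counts, and the floor used here, 3 counts in a library, equalled 0.145 to 0.236 CPM. PBS 1 lay apart from PBS 2 and 3 on the second principal component, at 58.39 against 0.77 and 1.95. On the first, with 54.3% of the variance, Lipo-BiTE 1, 2 and 3 were spread over 51.15, 13.33 and −23.85. Lipo-TriTE libraries lay there at 77.48 to 92 and PBS libraries at −103.31 to −90.93. Markers of most leukocytes differed between groups, as given beside each ligand group below. Of the lists not named there, 4 of 4 B cell genes were higher in Lipo-TriTE than in PBS and 0 of 4 in Lipo-BiTE by edgeR (2 at an unadjusted p under 0.05), with Ms4a1 at 53.86 to 155.2, 0.4354 to 1.501 and 0.07407 to 0.415 CPM in Lipo-TriTE, Lipo-BiTE and PBS libraries. Mast cell genes summed to 204.8 to 267.3, 42.18 to 69.01 and 23.54 to 65.48 CPM (Cpa3 at 157.1 to 219.6, 20.87 to 47.17 and 16.78 to 59.04), and platelet genes to 24.06 to 36.66, 17.86 to 38.17 and 27.48 to 33.87 CPM (Pf4 at 13.68 to 23.73, 9.082 to 29.24 and 21.41 to 27.33). Of 3 mast cell genes, 3 were higher than in PBS with Lipo-TriTE and 1, Kit, with Lipo-BiTE (4.15-fold, edgeR adjusted p = 0.001). Between the agents 2 were higher with Lipo-TriTE, while Kit was not called (1.75-fold, edgeR adjusted p = 0.089), though its libraries did not overlap. Cr2, listed for follicular dendritic cells, stood at 31.66 to 89.55, 0.2903 to 1.201 and 0 to 0.3557 CPM. Like Ms4a1 it was highest in Lipo-TriTE 1, and which cells held it was not tested. Its list was mixed: Pdpn was lower with Lipo-TriTE than with PBS (1.88-fold, edgeR adjusted p = 0.049), and Madcam1 held 7 counts in all. Lyve1, of lymphatic endothelium, stood at 0.7753 to 2.328, 0 to 3.41 and 0 to 0.5301 CPM. Of the 4 genes of its list, it was the 1 that passed the filter.

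The 250 bases before the start of 4 ligand genes are shown because Cxcl1, Cxcl2 and Cxcl3, near neighbours on chromosome 5, share a stretch in this window and yet differ in their values below, while Cxcl10 holds both kinds of motif searched. Promoters come from RefSeq on GRCm38.p6 and matched 24 of the 34 genes by symbol, with 30 entries, since a gene can have several. Capitals mark matches to the kappaB motif, named for the NF-kappaB factors, or to the interferon-stimulated response element (ISRE, searched as GAAANNGAAA). Both motifs were searched on both strands of the 250 bases before each start.
Cxcl1, chr5:90890995-90891244, plus strand: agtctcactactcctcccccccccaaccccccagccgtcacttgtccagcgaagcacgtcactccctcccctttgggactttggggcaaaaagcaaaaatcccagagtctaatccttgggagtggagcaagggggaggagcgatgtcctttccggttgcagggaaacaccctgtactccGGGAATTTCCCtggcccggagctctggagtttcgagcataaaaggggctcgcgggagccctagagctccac
Cxcl2, chr5:90903649-90903898, plus strand: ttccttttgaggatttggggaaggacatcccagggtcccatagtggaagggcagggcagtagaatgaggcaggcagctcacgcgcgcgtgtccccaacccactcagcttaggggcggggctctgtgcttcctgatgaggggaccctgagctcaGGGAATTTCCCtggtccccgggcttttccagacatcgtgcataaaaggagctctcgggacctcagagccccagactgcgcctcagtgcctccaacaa
Cxcl3, chr5:90785851-90786100, plus strand: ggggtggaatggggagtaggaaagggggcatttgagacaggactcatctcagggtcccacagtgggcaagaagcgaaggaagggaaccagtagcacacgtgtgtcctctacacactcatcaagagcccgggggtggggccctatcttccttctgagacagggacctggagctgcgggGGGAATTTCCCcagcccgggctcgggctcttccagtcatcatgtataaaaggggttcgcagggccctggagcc
Cxcl10, chr5:92348890-92349139, minus strand: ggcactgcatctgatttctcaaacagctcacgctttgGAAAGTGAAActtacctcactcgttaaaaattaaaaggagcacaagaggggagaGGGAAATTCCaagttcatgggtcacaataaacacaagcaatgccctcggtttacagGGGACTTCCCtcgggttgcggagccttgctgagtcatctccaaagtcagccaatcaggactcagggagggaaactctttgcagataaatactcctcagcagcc

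The stretch GGGAATTTCCC, picked out after the promoters were read, began 71 bases before the start of Cxcl1, 97 before Cxcl2 and 73 before Cxcl3. It holds 2 overlapping kappaB matches. It was taken as the longest stretch that these 3 promoters share and whose ends are reverse complements of each other. It was found in 3 of the 30 ligand promoter entries (10%) and in 14 of 32851 entries in the table (0.0426%). The first count was thus fixed by the choice, and the 2 shares are no measure of enrichment. The kappaB motif was found in 6 entries (20%), those of Cxcl1, Cxcl2, Cxcl3, Cxcl10, Ccl9 and Ccl20, against 3.9% of all entries. The ISRE was found in those of Cxcl10 and Cxcl14 (6.67%), against 2.98% of all entries. In Cxcl10 the ISRE began 213 bases and the kappaB matches 159 and 103 bases before the start. A match describes the letters in this window and says nothing of binding.

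Most of the ligand genes that could be tested were higher with either agent than with PBS. Of the 24 genes that passed the filter on low counts, 17 were higher and 2 were lower in Lipo-TriTE than in PBS tumours by the quasi-likelihood test of edgeR (adjusted p under 0.05). Over all 16596 genes tested, 18.9% were higher and 14.8% lower in that comparison. The libraries of the groups did not overlap for 19 ligands that were higher and 2 that were lower, which held for 26% and 23.4% of all genes. The median log2 fold change was 2.88 over the ligands and 0.00315 over all genes tested. In Lipo-BiTE against PBS tumours 18 were higher and 0 lower, where 13.8% of all genes were higher and 3.22% lower, with medians of 2.86 and −0.0225. By edgeR, 1 of the 24, Cxcl12, was lower at an unadjusted p under 0.05, and DESeq2 called 0 lower. Here 18 ligands were higher and 1 lower without overlap of libraries, against 22.7% and 19.4% of all genes. Both comparisons use the same PBS libraries, and 16 genes were higher in each of them.

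Of the 24 ligands tested, 6 were called between the agents. In Lipo-TriTE against Lipo-BiTE tumours, Ccl5 and Ccl22 were higher and Ccl2, Cxcl1, Cxcl10 and Cx3cl1 lower, that is 2 and 4 of the 24 tested. Of all genes tested, 4.88% were higher and 5.21% lower in this comparison, and the medians were −0.348 over the ligands and −0.0129 over all genes. Libraries did not overlap for 3 ligands that were higher and 5 that were lower, against 16.1% and 14.4% of all genes. Several low ligands, such as Ccl17, Xcl1 and Ccl1, passed the filter through the treated libraries, so the count over the tested genes is not one over the family.

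**Figure D1:**
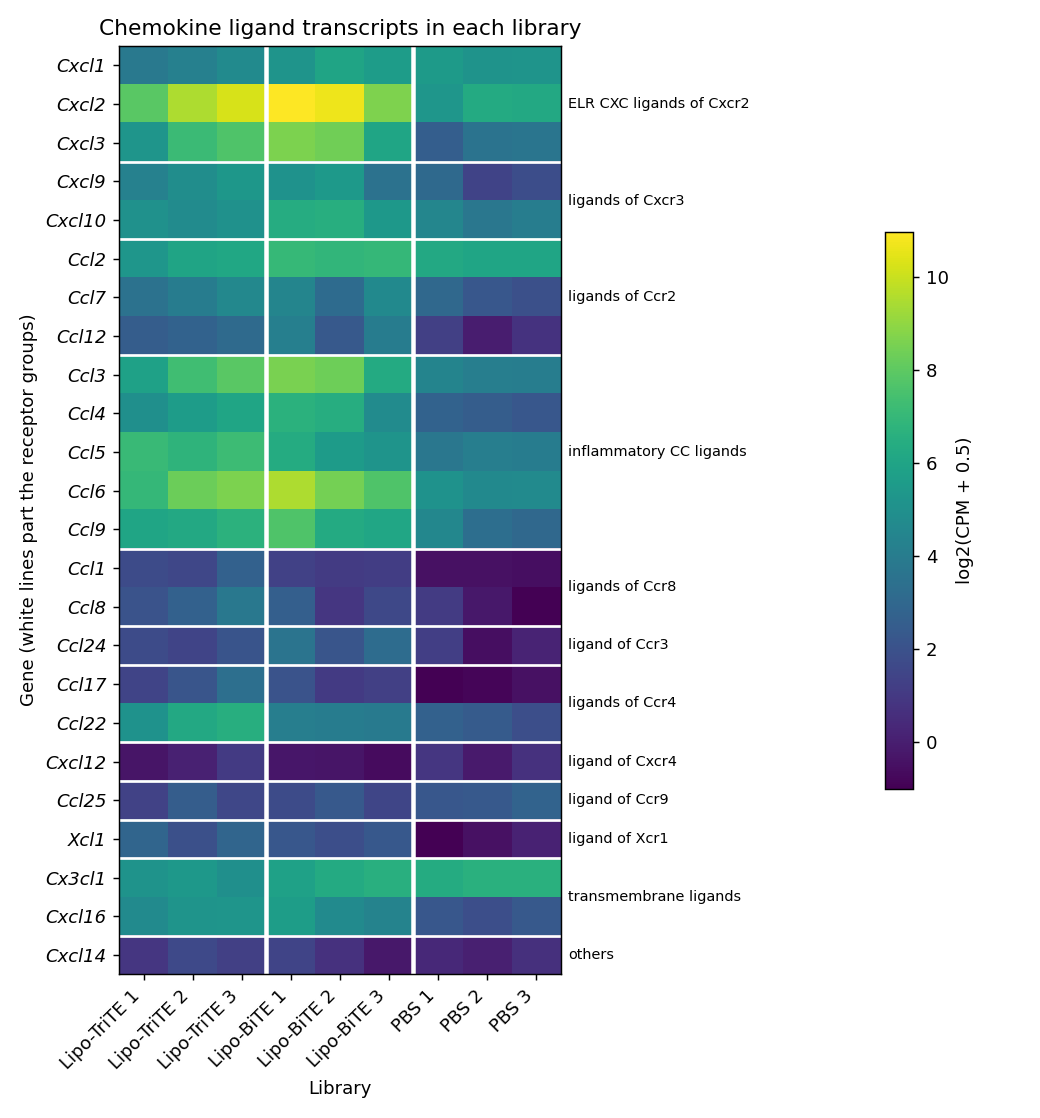
Heat map of the 24 chemokine ligand genes tested (rows, grouped by receptor) in the 9 libraries (columns). Colour gives log2(CPM + 0.5). The rows of Cxcl2, Ccl3 and Ccl6 are brighter in every treated library than in the PBS columns, while Cxcl1 and Cx3cl1 stay at or below the colour of the PBS columns in Lipo-TriTE libraries.

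Summed per length, as RPKM (CPM divided by gene length in kilobases), the family reached 629.6, 1184 and 1738 in Lipo-TriTE 1, 2 and 3, against 238.6, 223.2 and 219.6 in PBS 1, 2 and 3. Lipo-BiTE 1, 2 and 3 reached 2598, 1963 and 813.5. Every treated library lay above every PBS library, and the treated groups overlapped. The family took 0.0948% to 0.285% of the counts in Lipo-TriTE, 0.132% to 0.38% in Lipo-BiTE and 0.0414% to 0.0416% in PBS libraries. The share was thus nearly equal among PBS libraries, whereas the ranges of the treated groups were wide and overlapped.

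The make-up of the family differed as well. In Lipo-TriTE tumours Cxcl2 held 27.2% ± 7.90 of the summed ligand RPKM, Ccl3 15.8% ± 3.38 and Ccl5 13.9% ± 7.86, and these 3 genes held 56.8% together. The place of Ccl5 came from Lipo-TriTE 1, where it held 22.9%, whereas in Lipo-TriTE 2 and 3 it held 9.75% and 8.93% and Ccl6 held 14.4% and 12.4%. In Lipo-BiTE tumours Cxcl2 held 33.9% ± 8.48, Ccl3 17.6% ± 4.30 and Ccl6 next, with 64.7% together. In PBS tumours Ccl2 led with 26.4% ± 0.75, ahead of Cxcl2 with 13.9% ± 5.26 and Ccl3 with 10.4% ± 0.83, which together made 50.6% (SD, n = 3 each). Ccl2 held 4.52% ± 0.88 in Lipo-TriTE and 7.79% ± 5.07 in Lipo-BiTE tumours, and Cxcl1 held 0.93% ± 0.21 in Lipo-TriTE, 1.88% ± 1.23 in Lipo-BiTE and 9.15% ± 1.04 in PBS tumours. The shares of Ccl2 and Cxcl1 did not overlap between treated and PBS libraries.

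**Figure D2:**
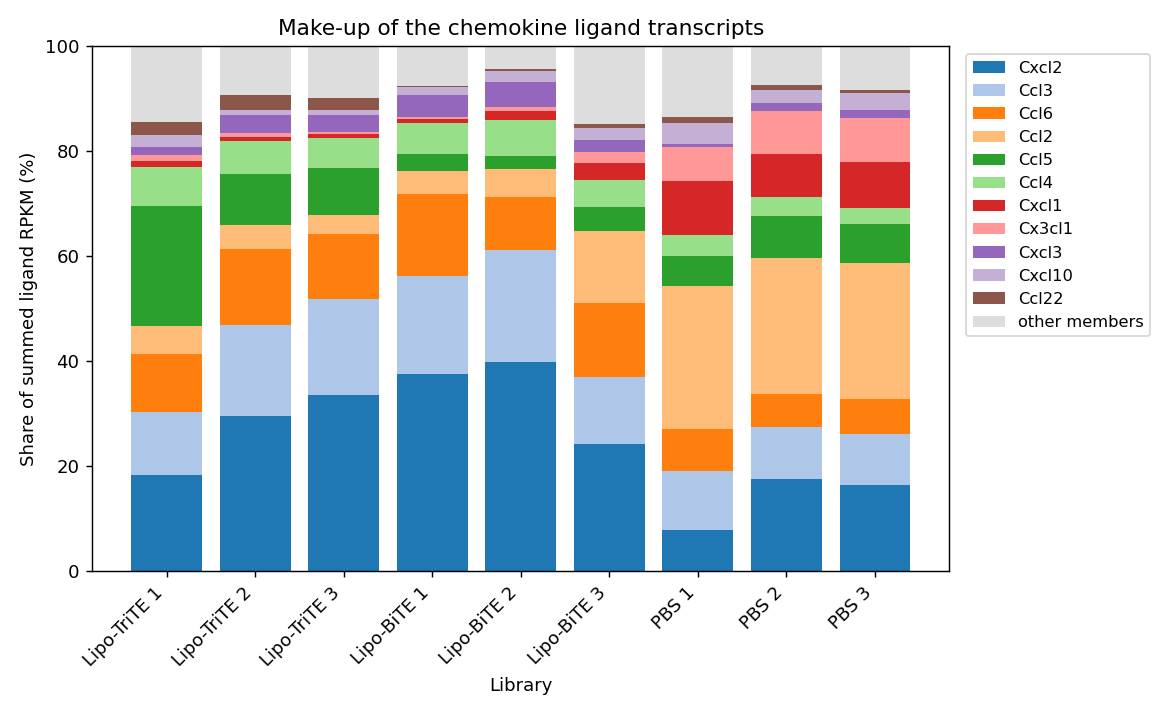
Share of the summed chemokine ligand RPKM (vertical axis, %) held by 11 named genes and by the other members in each library (horizontal axis). Cxcl2 holds 18.4% to 39.9% in treated libraries and 7.85% to 17.5% in PBS libraries, and Ccl2 holds 25.9% to 27.3% in PBS libraries and at most 13.6% in treated ones.

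By mean RPKM the order in Lipo-TriTE tumours began with Cxcl2 (350.0 ± 234), Ccl3 (198 ± 120.0), Ccl6 (152 ± 74.8) and Ccl5 (138 ± 20.6), whose ranges each overlapped with the next. Ccl5 did not overlap with Ccl4, the next in order, at 73.4 ± 26.7. In Lipo-BiTE tumours the order was Cxcl2 (652 ± 406), Ccl3 (337 ± 204), Ccl6 (238 ± 148), Ccl2 (110.0 ± 5.27) and Ccl4 (108 ± 58.3), again with overlap between neighbours. In PBS tumours Ccl2 (60.0 ± 4.42) stood clear of Cxcl2 (31.2 ± 10.9), which overlapped with Ccl3 (23.6 ± 2.97), and Ccl3 with Cxcl1 (20.8 ± 3.27; SD, n = 3 each). No test was run on these orders.

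The neutrophil attractants that act on Cxcr2 did not move together. These ELR CXC ligands lie in 1 cluster on chromosome 5, between 95522297 and 95660321 in the C57BL/6NJ coordinates of the table. Cxcl2 and Cxcl3 rose more than 10-fold with each agent, whereas Cxcl1, whose gene lies between theirs, was lower in Lipo-TriTE tumours and was not called in Lipo-BiTE tumours.

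Cxcl2, made by activated macrophages and neutrophils, stood at 239, 723 and 1208 CPM in Lipo-TriTE 1, 2 and 3, at 2016, 1620 and 407 CPM in Lipo-BiTE 1, 2 and 3 and at 38.7, 80.7 and 74.2 CPM in PBS 1, 2 and 3. All treated libraries lay above all PBS libraries, and the treated groups overlapped. It rose 11.2-fold with Lipo-TriTE (log2 fold change 3.49, SE 0.68, edgeR adjusted p = 0.0033), and 7.36-fold without Lipo-TriTE 3 (adjusted p = 0.013). With Lipo-BiTE it rose 20.9-fold (log2 4.38, SE 0.71, edgeR adjusted p = 0.0021). Between the agents the log2 difference was −0.90 with an SE of 0.62 (edgeR adjusted p = 0.4).

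Cxcl3, a close relative of Cxcl2 that ranked the 6 treated libraries in the same order, stood at 37.3, 143 and 207 CPM in Lipo-TriTE, 393, 329 and 65.2 CPM in Lipo-BiTE and 5.48, 11.5 and 12 CPM in PBS libraries 1, 2 and 3. No treated library overlapped with PBS. It rose 13.3-fold with Lipo-TriTE (log2 3.73, SE 0.75, edgeR adjusted p = 0.0039) and 27.1-fold with Lipo-BiTE (log2 4.76, SE 0.78, edgeR adjusted p = 0.0023). The agents overlapped, with a log2 difference of −1.03 and an SE of 0.66 (edgeR adjusted p = 0.37).

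Cxcl1, which many tumour and stromal cells make, stood at 13.8, 18.1 and 26 CPM in Lipo-TriTE, 36.5, 62.7 and 48.8 CPM in Lipo-BiTE and 46.1, 34.6 and 36.5 CPM in PBS libraries 1, 2 and 3. Every Lipo-TriTE library lay below every library of the other groups, which overlapped with each other. Cxcl1 was 2.03-fold lower with Lipo-TriTE than with PBS (log2 −1.02, SE 0.26, edgeR adjusted p = 0.012). It was 2.56-fold lower than with Lipo-BiTE (log2 −1.36, SE 0.26, edgeR adjusted p = 0.011), a call that ended without Lipo-BiTE 2 (adjusted p = 0.056). Lipo-BiTE against PBS gave a log2 difference of 0.34 with an SE of 0.26 (edgeR adjusted p = 0.39). The promoter stretch printed above is thus shared by Cxcl2 and Cxcl3, which rose, and by Cxcl1, which was not called higher with either agent.

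The summed level of the neutrophil markers, though not Csf3r, which defines the list, ranked the libraries within each treated group as Cxcl2 and Cxcl3 did. Of 5 neutrophil genes 5 were higher than in PBS with each agent, and edgeR called 0 between the agents (0 also at an unadjusted p under 0.05). The sum was 1189, 2455 and 4022 CPM in Lipo-TriTE 1, 2 and 3, 5846, 2658 and 1062 CPM in Lipo-BiTE 1, 2 and 3, and 122.7, 271.5 and 274.3 CPM in PBS 1, 2 and 3, and Csf3r stood at 357, 639 and 565, at 1755, 857 and 303 and at 25.3, 72.1 and 65.9 CPM in the same libraries. Per CPM of that sum, Cxcl2 stood at 0.201, 0.294 and 0.3 in Lipo-TriTE, 0.345, 0.609 and 0.383 in Lipo-BiTE and 0.316, 0.297 and 0.27 in PBS libraries. On this ratio Lipo-TriTE overlapped with PBS, and Lipo-BiTE lay above both. Ratios of this kind were formed for 19 pairs of a ligand and a marker list, chosen after the values were seen, and were not tested.

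Of the genes chosen by name, the other ligands of this receptor, Cxcl5 and Cxcl15, did not pass the filter, with totals of 63 and 12 counts over the 9 libraries. The receptor gene Cxcr2 itself stood at 174 ± 76.3 CPM in Lipo-TriTE, 179 ± 148 in Lipo-BiTE and 14.1 ± 5.70 in PBS tumours (SD, n = 3 each). It rose 12.3-fold with Lipo-TriTE (edgeR adjusted p = 0.0023) and 12.7-fold with Lipo-BiTE (edgeR adjusted p = 0.0037).

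**Figure D3:**
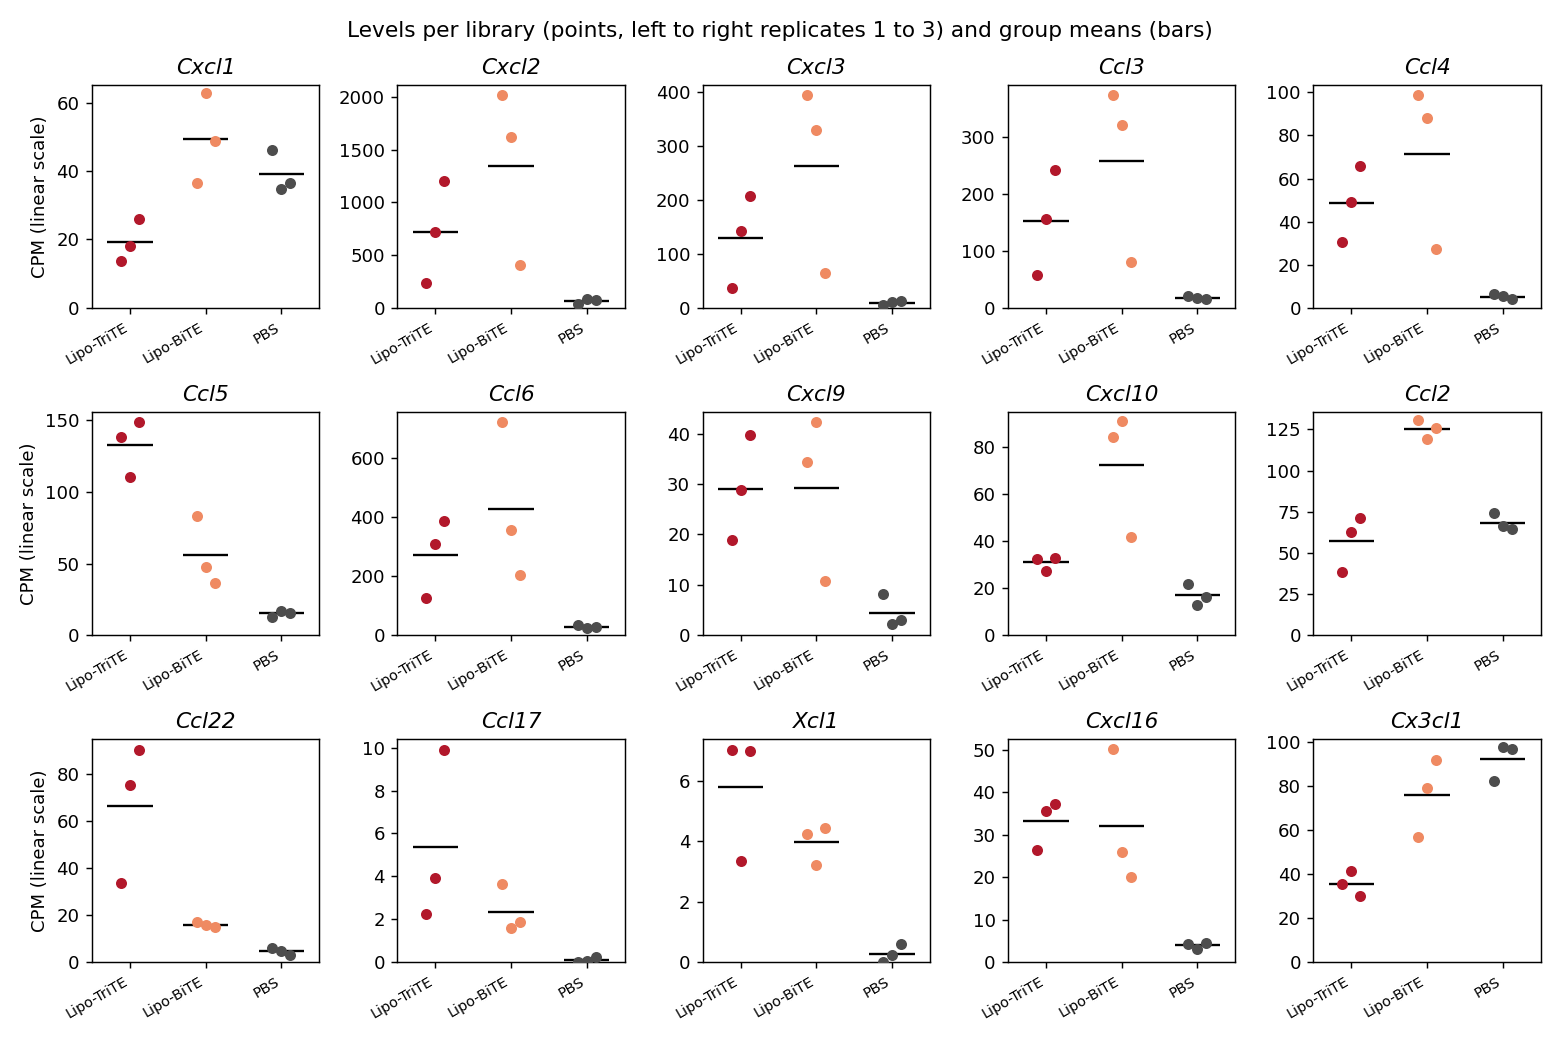
CPM per library (vertical axes, linear, each starting at 0) for 15 chemokine ligand genes. Points are libraries, with replicates 1 to 3 from left to right, and bars are means of 3. Within the treated groups Cxcl2, Cxcl3 and Ccl3 are highest in Lipo-BiTE 1 and Lipo-TriTE 3 and lowest in Lipo-BiTE 3 and Lipo-TriTE 1, while Ccl5 and Ccl22 are above the other groups in each Lipo-TriTE library.

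Ligands of Cxcr3, a receptor of activated T and NK cells, rose with each agent. Cxcl9 and Cxcl10, both induced by interferon gamma, lie on chromosome 5 between 97213374 and 97245742. Cxcl11, another ligand of Cxcr3, is not among the 34 genes. Cxcl9 stood at 18.9, 28.8 and 39.7 CPM in Lipo-TriTE, 34.3, 42.3 and 10.8 CPM in Lipo-BiTE and 8.15, 2.12 and 3.08 CPM in PBS libraries 1, 2 and 3. All treated libraries were above PBS, by 6.62-fold with Lipo-TriTE (log2 2.73, SE 0.59, edgeR adjusted p = 0.0056) and 6.63-fold with Lipo-BiTE (log2 2.73, SE 0.59, edgeR adjusted p = 0.01). Without PBS 1, the highest PBS library, these became 11-fold and 11.2-fold, and without PBS 3 the Lipo-BiTE call ended (adjusted p = 0.051). It also ended with no filter on low counts (adjusted p = 0.076).

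Cxcl10, which type I interferons induce too, stood at 32.5, 27.2 and 32.8 CPM in Lipo-TriTE, 84.1, 90.8 and 41.5 CPM in Lipo-BiTE and 21.9, 12.8 and 16.2 CPM in PBS libraries. The groups did not overlap and lay in the order Lipo-BiTE, Lipo-TriTE, PBS. It rose 1.82-fold with Lipo-TriTE (log2 0.87, SE 0.29, edgeR adjusted p = 0.038) and 4.26-fold with Lipo-BiTE (log2 2.09, SE 0.29, edgeR adjusted p = 0.001). Lipo-TriTE was 2.34-fold below Lipo-BiTE (log2 −1.23, SE 0.28, edgeR adjusted p = 0.024). The Lipo-TriTE rise lost its call without PBS 2 or 3 or Lipo-TriTE 1 or 3 (adjusted p from 0.083 to 0.12), and the difference between agents lost it without Lipo-BiTE 2 or any Lipo-TriTE library (0.057 to 0.098).

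Cxcl9 had no such call. For Cxcl9 the log2 difference between agents was 0.00 with an SE of 0.53 (edgeR adjusted p = 1), and its sign changed with the scaling. Cxcr3 was higher than in PBS with each agent, at 49.1 ± 20.7 CPM in Lipo-TriTE, 21.4 ± 6.76 in Lipo-BiTE and 2.70 ± 1.47 in PBS tumours (SD, n = 3 each), and was not called between the agents (2.3-fold, edgeR adjusted p = 0.076). The Cxcl10 entry overlaps Art3 on the opposite strand, which held 143 counts against 5244 for Cxcl10, and whether the counts were stranded is not stated.

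Monocyte attractants of Ccr2 lie on chromosome 11 from 85777797, with the genes for Ccl11, Ccl8 and Ccl1 beyond them. Ccl2, the best known of them, separated the agents: it rose with Lipo-BiTE and not with Lipo-TriTE. It stood at 38.2, 62.4 and 70.9 CPM in Lipo-TriTE, 131, 119 and 126 CPM in Lipo-BiTE and 74.1, 66.1 and 64.7 CPM in PBS libraries 1, 2 and 3. Lipo-BiTE libraries lay above all others, and Lipo-TriTE overlapped with PBS. The Lipo-BiTE rise was 1.83-fold (log2 0.88, SE 0.20, edgeR adjusted p = 0.012) and lost its call without PBS 3 (adjusted p = 0.053). Lipo-TriTE differed from PBS by −0.26 on the log2 scale (SE 0.20, edgeR adjusted p = 0.35) and was 2.19-fold lower than Lipo-BiTE (log2 −1.13, SE 0.20, edgeR adjusted p = 0.0086).

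Ccl7 and Ccl12, which act on the same receptor, rose with both agents. Ccl7 stood at 10.9, 15.6 and 23.3 CPM in Lipo-TriTE, 21.6, 8.48 and 25.3 CPM in Lipo-BiTE and 7.78, 4.24 and 3.32 CPM in PBS libraries. Treated libraries lay above PBS, by 3.26-fold with Lipo-TriTE (edgeR adjusted p = 0.017) and 3.63-fold with Lipo-BiTE (edgeR adjusted p = 0.021). These calls ended without PBS 2, PBS 3 or Lipo-TriTE 3 in the first case (adjusted p of 0.066, 0.066 and 0.058) and without PBS 2, PBS 3 or Lipo-BiTE 1 in the second (0.081, 0.078 and 0.061). Ccl12, a ligand of rodents, stood at 5.23, 6.21 and 8.21 CPM in Lipo-TriTE, 17.7, 4.58 and 15.9 CPM in Lipo-BiTE and 1.93, 0.471 and 1.19 CPM in PBS libraries. It rose 5.54-fold with Lipo-TriTE (log2 2.47, SE 0.57, edgeR adjusted p = 0.0075) and 10.8-fold with Lipo-BiTE (log2 3.43, SE 0.58, edgeR adjusted p = 0.0025).

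Macrophage and monocyte markers were higher than in PBS in 5 of 5 cases with each agent. Between the agents edgeR called 0 of 5, but 2, Csf1r and Cd68, were lower with Lipo-TriTE at an unadjusted p under 0.05, by 1.96-fold (adjusted p = 0.097) and 1.95-fold (adjusted p = 0.094). The sum of the list ran from 386.9 to 475.3 CPM in Lipo-TriTE, 487.1 to 1260 in Lipo-BiTE and 76.51 to 100.4 in PBS libraries, without overlap between groups, and the level of Csf1r from 169.9 to 221.6, 198.7 to 635.3 and 27.63 to 30.8 CPM. Per CPM of that sum Ccl2 stood at 0.131 ± 0.0323 in Lipo-TriTE, 0.187 ± 0.0781 in Lipo-BiTE and 0.815 ± 0.0680 in PBS tumours (SD, n = 3 each). Relative to these markers Ccl2 was lower in every treated library than in any PBS library. Ccr2 was higher with each agent, at 229 ± 18.8 CPM in Lipo-TriTE, 234 ± 133 in Lipo-BiTE and 25.5 ± 2.42 in PBS tumours.

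The inflammatory CC ligands rose as a block. In a second cluster on chromosome 11, between 87455568 and 87615387, 5 of 5 genes were higher than in PBS with each agent: Ccl5, Ccl9, Ccl6, Ccl3 and Ccl4. Ccl3, also called MIP-1α and made by myeloid cells and activated lymphocytes, stood at 57.4, 157 and 242 CPM in Lipo-TriTE, 373, 319.9 and 80.3 CPM in Lipo-BiTE and 20.7, 17 and 16.5 CPM in PBS libraries 1, 2 and 3. It rose 8.41-fold with Lipo-TriTE (log2 3.07, SE 0.60, edgeR adjusted p = 0.0034) and 14.3-fold with Lipo-BiTE (log2 3.84, SE 0.62, edgeR adjusted p = 0.0021). Among the 6 treated libraries its order was that of Cxcl2.

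Ccl4, or MIP-1β, encoded beside Ccl3 and made by many of the same cells, stood at 30.5, 49 and 65.8 CPM in Lipo-TriTE, 98.7, 88 and 27.4 CPM in Lipo-BiTE and 6.22, 5.3 and 4.27 CPM in PBS libraries. Treated and PBS libraries did not overlap. It rose 9.21-fold with Lipo-TriTE (log2 3.20, SE 0.47, edgeR adjusted p = 0.00075) and 13.6-fold with Lipo-BiTE (log2 3.76, SE 0.48, edgeR adjusted p = 0.00083).

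Ccl5, also called RANTES, which activated T and NK cells store and release, had another pattern. It stood at 139, 111 and 149 CPM in Lipo-TriTE, 83, 47.7 and 36.5 CPM in Lipo-BiTE and 13, 16.8 and 15.6 CPM in PBS libraries. The groups did not overlap and lay in the order Lipo-TriTE, Lipo-BiTE, PBS. Ccl5 rose 8.76-fold with Lipo-TriTE (log2 3.13, SE 0.29, edgeR adjusted p = 5.5e-05) and 3.68-fold with Lipo-BiTE (log2 1.88, SE 0.28, edgeR adjusted p = 0.0012). Lipo-TriTE was 2.38-fold above Lipo-BiTE (log2 1.25, SE 0.27, edgeR adjusted p = 0.017), and this call ended without Lipo-BiTE 2 (adjusted p = 0.085) or Lipo-TriTE 3 (0.059).

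T cell markers were in the same order as Ccl5 across groups, and 5 of 5 were higher in each of the 3 comparisons. Their sum ran from 439.4 to 747.9 CPM in Lipo-TriTE, 98.9 to 188.1 in Lipo-BiTE and 21.16 to 26.03 in PBS libraries. Of 3 NK cell genes tested 3 were higher than in PBS with each agent and 2 were higher with Lipo-TriTE than with Lipo-BiTE, with sums of 68.84 to 89.6, 26.49 to 48.35 and 6.37 to 8.952 CPM and Ncr1 at 12.89 to 16.55, 6.98 to 12.36 and 1.601 to 2.65 CPM. Per CPM of the T cell sum, Ccl5 stood at 0.243 ± 0.0535 in Lipo-TriTE, 0.39 ± 0.0444 in Lipo-BiTE and 0.658 ± 0.0744 in PBS tumours. Per CPM of the NK cell sum it stood at 1.68 ± 0.176, 1.51 ± 0.182 and 2.02 ± 0.137 in these groups (SD, n = 3 each). Relative to the T cell sum, Ccl5 was lower in every treated library than in any PBS library.

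Ccl6 and Ccl9 are ligands of Ccr1 known from rodents, where myeloid cells make them. Ccl6 stood at 125, 307 and 387 CPM in Lipo-TriTE, 721, 355 and 204 CPM in Lipo-BiTE and 33.9, 25 and 26.4 CPM in PBS libraries. It rose 9.61-fold with Lipo-TriTE (log2 3.26, SE 0.50, edgeR adjusted p = 0.001) and 15-fold with Lipo-BiTE (log2 3.91, SE 0.52, edgeR adjusted p = 0.00092), or 9.85-fold without Lipo-BiTE 1. Ccl9 stood at 64.6, 74.2 and 103 CPM in Lipo-TriTE, 205, 79.2 and 67.5 CPM in Lipo-BiTE and 22.6, 9.48 and 7.83 CPM in PBS libraries. Its highest library was Lipo-BiTE 1, and the treated groups overlapped with each other and not with PBS. Ccl9 rose 6.1-fold with Lipo-TriTE (log2 2.61, SE 0.50, edgeR adjusted p = 0.0031), or 9.19-fold without PBS 1. With Lipo-BiTE it rose 8.86-fold (log2 3.15, SE 0.51, edgeR adjusted p = 0.0021). Leaving out PBS 1 made this 13.5-fold, and leaving out Lipo-BiTE 1 made it 5.58-fold. An entry on the opposite strand of Ccl6, E230016K23Rik, held 270 counts against 31441.

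Ccr1, the receptor of Ccl3, Ccl5, Ccl6 and Ccl9, rose with each agent and was not called between the agents. It stood at 277 ± 116 CPM in Lipo-TriTE, 353 ± 234 in Lipo-BiTE and 22.5 ± 4.36 in PBS tumours (SD, n = 3 each).

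**Figure D4:**
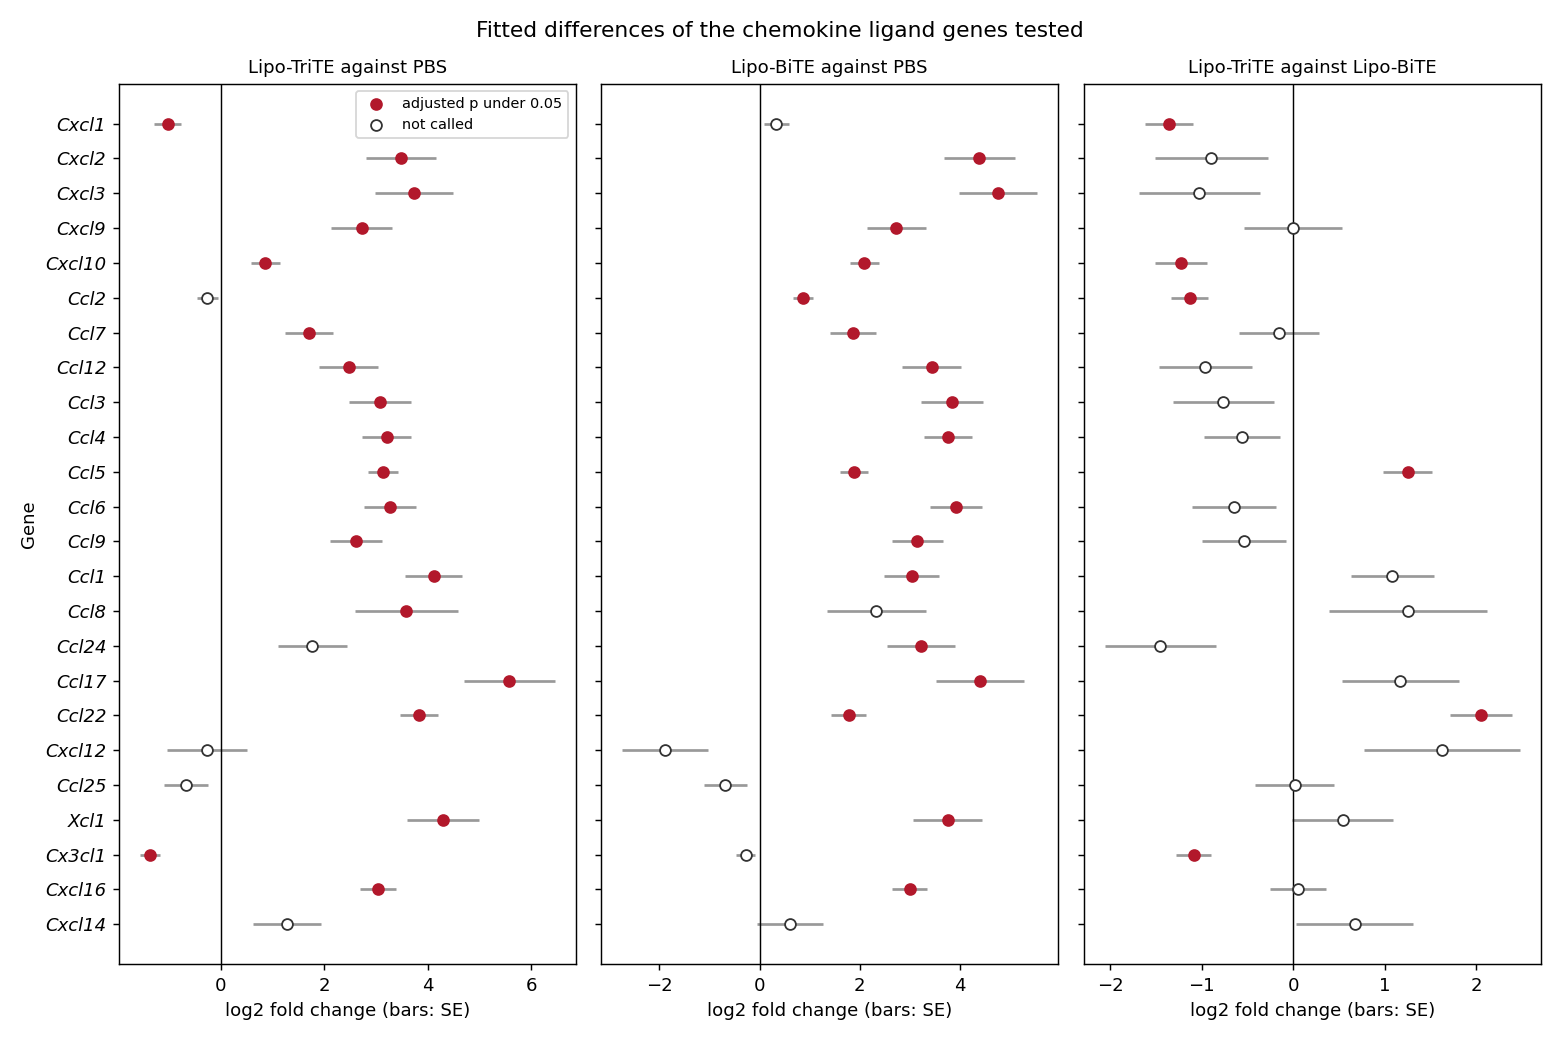
Fitted log2 fold changes (horizontal axes, with bars of 1 SE) of the 24 chemokine ligand genes tested (rows) in the 3 comparisons. Filled points have an edgeR adjusted p under 0.05. Against PBS the filled points lie right of 0 except Cxcl1 and Cx3cl1 in Lipo-TriTE, and between the agents 6 are filled, Ccl5 and Ccl22 to the right and Cxcl1, Cxcl10, Ccl2 and Cx3cl1 to the left.

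Ligands of Ccr4, a receptor of helper type 2 and regulatory T cells, included Ccl22, which had the larger of the 2 called excesses of Lipo-TriTE over Lipo-BiTE. Ccl22, made mainly by dendritic cells and macrophages, stood at 33.8, 75.6 and 90.6 CPM in Lipo-TriTE, 17, 16 and 15 CPM in Lipo-BiTE and 6, 4.89 and 3.2 CPM in PBS libraries 1, 2 and 3. The groups did not overlap. It rose 14.2-fold with Lipo-TriTE (log2 3.83, SE 0.37, edgeR adjusted p = 7.2e-05) and 3.42-fold with Lipo-BiTE (log2 1.77, SE 0.35, edgeR adjusted p = 0.0062). Lipo-TriTE was 4.16-fold above Lipo-BiTE (log2 2.06, SE 0.34, edgeR adjusted p = 0.0072), and this call held without each library in turn.

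Ccl17, the other ligand of Ccr4, was near the floor in PBS tumours, with 0, 1 and 4 counts. Its level was 2.23, 3.93 and 9.89 CPM in Lipo-TriTE, 3.62, 1.58 and 1.89 CPM in Lipo-BiTE and 0, 0.0589 and 0.237 CPM in PBS libraries. Treated libraries lay above PBS libraries. The fitted rises were 47.6-fold with Lipo-TriTE (log2 5.57, SE 0.88, edgeR adjusted p = 0.00095) and 21.1-fold with Lipo-BiTE (log2 4.4, SE 0.88, edgeR adjusted p = 0.0062). These sizes rest on few PBS counts: without PBS 3 they became 133-fold and 57.3-fold, and without Lipo-TriTE 3 the first became 27.3-fold. The agents overlapped (log2 1.17, SE 0.64, edgeR adjusted p = 0.28).

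Dendritic cell markers, 5 in all, were higher than in PBS in 5 cases with Lipo-TriTE and 4 with Lipo-BiTE, and 4 were higher with Lipo-TriTE than with Lipo-BiTE. Their sum was 247.2, 208.5 and 200.4 CPM in Lipo-TriTE, 54.57, 47.96 and 39.69 CPM in Lipo-BiTE and 23.33, 21.03 and 17.84 CPM in PBS libraries, and Flt3 ranged over 38.73 to 41.48, 6.095 to 7.717 and 2.768 to 4.148 CPM. Ccr7, which also guides naive T cells, is in this list and gave 134.6, 114.5 and 94.6 CPM of the sum in Lipo-TriTE. In Lipo-BiTE it gave 17.6, 13.4 and 10.2 CPM, and in PBS libraries 6.37, 4.12 and 1.84 CPM. Its part in the ratios below was not tested. Per CPM of that sum, Ccl22 stood at 0.137, 0.362 and 0.452 in Lipo-TriTE, 0.312, 0.333 and 0.378 in Lipo-BiTE and 0.257, 0.232 and 0.179 in PBS libraries. Among Lipo-TriTE libraries Ccl22 was lowest in Lipo-TriTE 1, the library with the highest dendritic cell sum and the highest T cell and B cell sums. Ccr4 stood at 7.63 ± 0.829 CPM in Lipo-TriTE, 2.59 ± 0.0580 in Lipo-BiTE and 1.44 ± 0.498 in PBS tumours (SD, n = 3 each). It was higher with Lipo-TriTE than with PBS (5.34-fold, edgeR adjusted p = 0.00047) or Lipo-BiTE (2.95-fold, edgeR adjusted p = 0.015), and was not called with Lipo-BiTE against PBS (1.81-fold, edgeR adjusted p = 0.11).

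**Figure D5:**
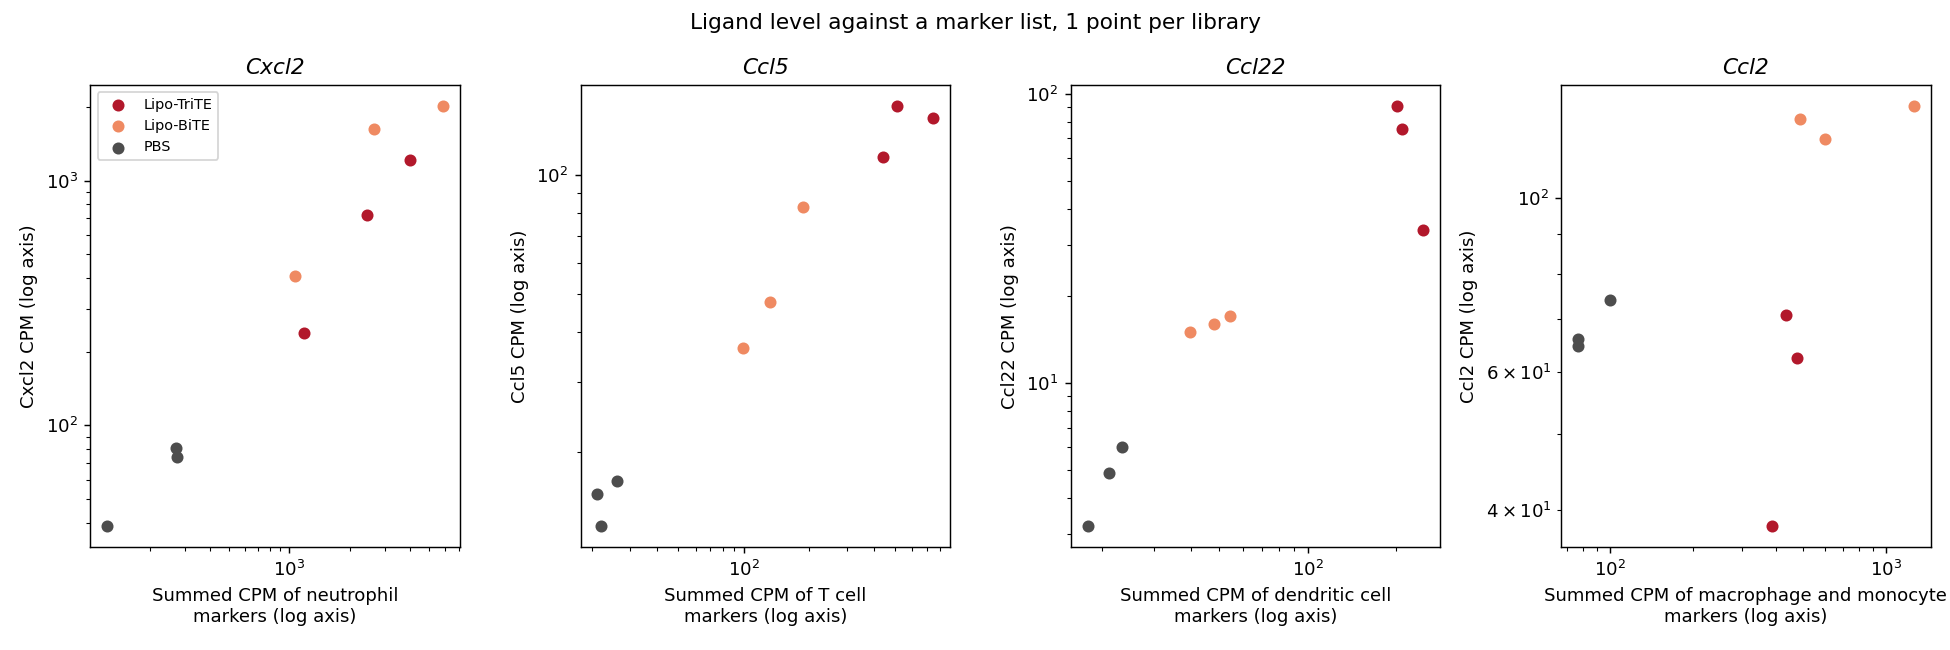
Level of 4 ligands (vertical axes, CPM, log) against the summed CPM of a marker list (horizontal axes, log), with 1 point per library. For Cxcl2, Ccl5 and Ccl22 every treated library lies above and to the right of every PBS library, and Ccl2 in Lipo-TriTE libraries is at 38.2 to 70.9 CPM against 64.7 to 74.1 in PBS, while the macrophage sum is 386.9 to 475.3 CPM against 76.51 to 100.4 in PBS.

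Ccl22, Cx3cl1 and Ccl17 lie side by side on chromosome 8 between 99683492 and 99749658, with Cx3cl1 in the middle. Cx3cl1, or fractalkine, is a membrane-anchored chemokine of epithelium, endothelium and neurons that binds Cx3cr1. It did not rise as its neighbours did, at 35.6, 41.6 and 30.3 CPM in Lipo-TriTE, 57.2, 79.4 and 92.2 CPM in Lipo-BiTE and 82.3, 98.1 and 96.9 CPM in PBS libraries 1, 2 and 3. Lipo-TriTE libraries lay below all others, and Lipo-BiTE overlapped with PBS. Cx3cl1 was 2.58-fold lower with Lipo-TriTE than with PBS (log2 −1.37, SE 0.19, edgeR adjusted p = 0.00051) and 2.13-fold lower than with Lipo-BiTE (log2 −1.09, SE 0.19, edgeR adjusted p = 0.0085). Both calls held without each library in turn. Lipo-BiTE against PBS gave −0.28 with an SE of 0.19 (edgeR adjusted p = 0.34).

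Of 3 epithelial and tumour cell genes, 2, Krt8 and Krt18, were lower than in PBS with Lipo-TriTE and 0 with Lipo-BiTE. Both lay below PBS in every Lipo-BiTE library, Krt8 at an unadjusted edgeR p of 0.048. Epcam, the other gene, was not lower, at 4.66 to 9.30 CPM in Lipo-TriTE, 2.18 to 3.70 in Lipo-BiTE and 2.47 to 5.48 in PBS libraries. It was 2.29-fold higher with Lipo-TriTE than with Lipo-BiTE at an unadjusted edgeR p of 0.014 (adjusted p = 0.089). The list, mostly Krt8 and Krt18, summed to 323.7 to 586.6 CPM in Lipo-TriTE, 513.4 to 737.8 in Lipo-BiTE and 840.2 to 901.8 in PBS libraries. Per CPM of that sum Cx3cl1 stood at 0.11, 0.0709 and 0.0546 in Lipo-TriTE, 0.111, 0.124 and 0.125 in Lipo-BiTE and 0.094, 0.109 and 0.115 in PBS libraries. Lipo-TriTE 1, the library with the lowest epithelial sum, lay within the PBS range on this ratio, and Lipo-TriTE 2 and 3 lay below it. For Cxcl1 the same ratio was 0.0401 ± 0.00830 in Lipo-TriTE, 0.0783 ± 0.0170 in Lipo-BiTE and 0.0448 ± 0.00720 in PBS tumours (SD, n = 3 each), so that Lipo-TriTE overlapped with PBS. Of the endothelial genes 2 of 3 tested were higher and 1 lower with Lipo-TriTE than with PBS, with Pecam1 at 66.24 to 117 CPM in Lipo-TriTE, 21.84 to 93.71 in Lipo-BiTE and 5.183 to 5.555 in PBS libraries. The gene that was lower was Cdh5, at 94.0, 84.4 and 73.8 CPM in Lipo-TriTE, 112, 159 and 212 CPM in Lipo-BiTE and 125, 150.4 and 149 CPM in PBS libraries. As for Cx3cl1, Lipo-TriTE lay below both other groups, by 1.68-fold against PBS (edgeR adjusted p = 0.018) and 1.92-fold against Lipo-BiTE (edgeR adjusted p = 0.02). In PBS tumours Cdh5 averaged 141 CPM, whereas Pecam1 and Kdr of the same list averaged 5.36 and 0.928 CPM. Which cells held Cdh5, and the part of epithelial and endothelial cells in the levels of Cx3cl1, were not tested. The receptor Cx3cr1, carried by monocytes and cytotoxic lymphocytes, was higher with each agent, at 36.2 ± 5.87, 34.1 ± 16.2 and 5.18 ± 1.03 CPM in Lipo-TriTE, Lipo-BiTE and PBS tumours.

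Cxcl16, the other membrane-anchored ligand, made by macrophages and dendritic cells, rose with both agents. It stood at 26.4, 35.7 and 37.3 CPM in Lipo-TriTE, 50.1, 25.8 and 20.1 CPM in Lipo-BiTE and 4.3, 3.12 and 4.62 CPM in PBS libraries. It rose 8.24-fold with Lipo-TriTE (log2 3.04, SE 0.35, edgeR adjusted p = 0.00014) and 7.97-fold with Lipo-BiTE (log2 2.99, SE 0.35, edgeR adjusted p = 0.00076). The agents overlapped, with a log2 difference of 0.05 and an SE of 0.31 (edgeR adjusted p = 0.95). Its receptor Cxcr6, of tissue-resident T cells, was higher with Lipo-TriTE than with Lipo-BiTE, at 61.0 ± 9.32, 24.2 ± 10.3 and 6.06 ± 1.64 CPM in Lipo-TriTE, Lipo-BiTE and PBS tumours (2.53-fold between the agents, edgeR adjusted p = 0.021). Cxcl16 (chromosome 11, 73127907 to 73133642) overlaps Zmynd15 on the opposite strand, which held 521 counts against 3131.

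Xcl1, or lymphotactin, is released by activated T and NK cells and acts on Xcr1 of cross-presenting dendritic cells. It stood at 7.03, 3.36 and 6.98 CPM in Lipo-TriTE, 4.25, 3.23 and 4.43 CPM in Lipo-BiTE and 0, 0.236 and 0.593 CPM in PBS libraries 1, 2 and 3. All treated libraries lay above PBS. It rose 19.6-fold with Lipo-TriTE (log2 4.29, SE 0.69, edgeR adjusted p = 0.0011) and 13.4-fold with Lipo-BiTE (log2 3.75, SE 0.69, edgeR adjusted p = 0.0037), and without PBS 3 these became 42.8-fold and 29-fold. Between the agents the log2 difference was 0.55 with an SE of 0.55 (edgeR adjusted p = 0.59). Xcr1, also a dendritic cell marker here, stood at 25.1 ± 4.39 CPM in Lipo-TriTE, 7.63 ± 0.739 in Lipo-BiTE and 1.88 ± 0.520 in PBS tumours, and was higher in each comparison. Xcl1 (chromosome 1, 176100272 to 176104155) overlaps Gm20743 on the opposite strand, with 103 counts against 478.

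Ligands of Ccr8, a receptor of regulatory and helper type 2 T cells, were low. Ccl1, which activated T cells make, stood at 2.86, 2.41 and 6.14 CPM in Lipo-TriTE, 1.97, 1.65 and 1.74 CPM in Lipo-BiTE and 0.222, 0.236 and 0.178 CPM in PBS libraries, the last 3 at 3 or 4 counts each. It rose 17.3-fold with Lipo-TriTE (log2 4.12, SE 0.55, edgeR adjusted p = 0.00037) and 8.17-fold with Lipo-BiTE (log2 3.03, SE 0.55, edgeR adjusted p = 0.0035). The Ccl1 entry spans 85932063 to 86066188 on chromosome 11, a model longer than those of its neighbours, so reads from elsewhere in this span could be counted with it. Ccl8, a ligand of Ccr8 in the mouse, stood at 3.73, 6.14 and 13.2 CPM in Lipo-TriTE, 5.75, 1.35 and 2.54 CPM in Lipo-BiTE and 1.63, 0.353 and 0 CPM in PBS libraries. Lipo-TriTE lay above PBS, and Lipo-BiTE overlapped with PBS.

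Ccl8 rose 12-fold with Lipo-TriTE (log2 3.59, SE 0.99, edgeR adjusted p = 0.018). Leaving out PBS 1, PBS 3 or Lipo-TriTE 3 made this 40.8-fold, 7.89-fold or 7.62-fold, and the call ended without PBS 2 (adjusted p = 0.075) or Lipo-TriTE 3 (0.068). With Lipo-BiTE the log2 difference was 2.33 with an SE of 0.98 (edgeR adjusted p = 0.13), which DESeq2 called (adjusted p = 0.047), as did edgeR with no filter (adjusted p = 0.0037) or without PBS 1 (0.047). Ccr8 was higher with each agent, at 5.00 ± 0.575 CPM in Lipo-TriTE, 2.64 ± 0.220 in Lipo-BiTE and 0.454 ± 0.377 in PBS tumours.

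Ccl24, or eotaxin-2, an eosinophil attractant of macrophages that acts on Ccr3, stood at 2.86, 2.22 and 3.88 CPM in Lipo-TriTE, 11.7, 3.9 and 9 CPM in Lipo-BiTE and 1.85, 0.177 and 0.652 CPM in PBS libraries. The groups did not overlap. It rose 9.35-fold with Lipo-BiTE (log2 3.22, SE 0.68, edgeR adjusted p = 0.0082), or 19.3-fold without PBS 1. Lipo-TriTE against PBS gave a log2 difference of 1.77 with an SE of 0.67 that was not called (edgeR adjusted p = 0.063), but was called by DESeq2 (adjusted p = 0.019) and by edgeR with no filter (0.0022) or without PBS 1 (0.011). Lipo-TriTE against Lipo-BiTE gave −1.45 with an SE of 0.61 (edgeR adjusted p = 0.16; 0.017 with no filter on low counts). Of the eosinophil genes 2 of 2 tested were higher than in PBS with each agent, with sums of 7.112 to 9.246 CPM in Lipo-TriTE, 4.789 to 15.43 in Lipo-BiTE and 0.8835 to 0.9629 in PBS libraries and Siglecf at 4.332 to 6.966, 3.41 to 12.21 and 0.7114 to 0.9629 CPM. Ccr3, one of these genes, stood at 2.74 ± 0.437, 1.98 ± 0.819 and 0.0394 ± 0.0341 CPM. The share of eosinophils in the Ccl24 levels was not tested.

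The ligands of homeostasis that were tested were called in no comparison. Cxcl12, the stromal ligand of Cxcr4 that holds leukocytes in bone marrow and tissue, ranged over 0.291 to 1.55 CPM in Lipo-TriTE, 0.145 to 0.315 in Lipo-BiTE and 0.412 to 1.33 in PBS libraries. Lipo-BiTE libraries lay below PBS, with a log2 difference of −1.88 and an SE of 0.85 (edgeR adjusted p = 0.15). This rests on 4, 4 and 2 counts in Lipo-BiTE, near the floor, against 18, 7 and 19 in PBS libraries. Fibroblast genes, which mark a main source of Cxcl12, were lower in 4 of 5 cases with Lipo-BiTE and 2 of 5 with Lipo-TriTE, with sums of 49.27 to 73.32 CPM in Lipo-TriTE, 40.3 to 48.35 in Lipo-BiTE and 73.48 to 184.1 in PBS libraries and Col1a1 at 16.49 to 41.19, 23.51 to 29.29 and 37.93 to 105.2 CPM. Cxcr4 rose with each agent, at 175 ± 25.5 CPM in Lipo-TriTE, 116 ± 69.7 in Lipo-BiTE and 9.37 ± 0.228 in PBS tumours, while its ligand was not called.

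Ccl25, the ligand of Ccr9 known from thymus and gut, ranged over 2.08 to 5.26 CPM in Lipo-TriTE, 2.32 to 4.5 in Lipo-BiTE and 4.22 to 6.64 in PBS libraries. Its receptor gene Ccr9 was higher with Lipo-TriTE than with Lipo-BiTE (11.5-fold, edgeR adjusted p = 0.00013), at 47.6 ± 7.17, 4.14 ± 1.10 and 2.81 ± 0.706 CPM in Lipo-TriTE, Lipo-BiTE and PBS tumours. Cxcl14, made by many epithelia, ranged over 1.36 to 2.6 CPM in Lipo-TriTE, 0.363 to 2.21 in Lipo-BiTE and 0.53 to 1.07 in PBS libraries. Its log2 difference between Lipo-TriTE and PBS was 1.28 with an SE of 0.65 (edgeR adjusted p = 0.16).

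The 10 ligand genes below the filter held 1 to 63 counts over all libraries, and the lowest total among those tested was 93, for Cxcl12. Cxcl13, which draws B cells through Cxcr5, had 6, 12 and 15 counts in Lipo-TriTE, 1, 1 and 0 in Lipo-BiTE and 0, 4 and 1 in PBS libraries 1, 2 and 3. Ccl11, or eotaxin-1, had 14, 7 and 4 counts in Lipo-TriTE, 0 in each Lipo-BiTE library and 0, 0 and 2 in PBS libraries. The counts of both genes were higher in each Lipo-TriTE library than in any other library. Ccl20, the ligand of Ccr6, had 0, 2 and 1 counts in Lipo-TriTE, 3, 5 and 3 in Lipo-BiTE and 0, 9 and 7 in PBS libraries. The totals were 15 for Cxcl17, 14 for Ccl28, 6 for Ccl26, 2 for Ccl27b and 1 for Ccl27a, ligands known from mucosa and skin. How reads that match more than 1 gene were counted is not given in the sources used here, which matters most for near copies such as Ccl27a and Ccl27b. With no filter on low counts, edgeR called 0 of these 10 genes in each comparison. At an unadjusted p under 0.05 it gave Cxcl17 as higher with Lipo-TriTE than with PBS (adjusted p = 0.17) and Ccl11 (adjusted p = 0.098) and Cxcl13 (adjusted p = 0.21) as higher with Lipo-TriTE than with Lipo-BiTE, and DESeq2 was not run on them.

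Most receptors were higher with either agent. Of 24 chemokine receptor genes listed, 20 were tested, and 18 were higher and 0 lower with Lipo-TriTE than with PBS, 16 and 0 with Lipo-BiTE than with PBS, and 7 and 0 with Lipo-TriTE than with Lipo-BiTE. Of all genes tested, 18.9%, 13.8% and 4.88% were higher in these comparisons. By edgeR 0, 0 and 1 receptors were lower at an unadjusted p under 0.05 in these comparisons, and DESeq2 called 0 lower in each. The median log2 fold changes were 3.62, 2.99 and 0.53 over the receptors, and 0.00315, −0.0225 and −0.0129 over all genes. The 7 receptors that were higher with Lipo-TriTE than with Lipo-BiTE were Ccr7, Ccr9, Cxcr5, Ccr6, Xcr1, Ccr4 and Cxcr6. Of their ligands tested, Ccl22 was higher with Lipo-TriTE as well, and Ccl17, Xcl1, Cxcl16 and Ccl25 were not called. Ccr7, which guides naive T cells and mature dendritic cells, stood at 115 ± 20.01 CPM in Lipo-TriTE, 13.7 ± 3.68 in Lipo-BiTE and 4.11 ± 2.27 in PBS tumours. Its ligands were not analysed here, since none was among the 34 genes taken by name. An entry described as Ccl19-like held 0 counts over the 9 libraries. Cxcr5 and Ccr6, which B cells carry, stood at 23.7 ± 13.4 and 9.72 ± 7.10 CPM in Lipo-TriTE, 2.59 ± 1.94 and 0.916 ± 0.697 in Lipo-BiTE and 0.301 ± 0.205 and 0.0393 ± 0.0680 in PBS tumours (SD, n = 3 each), while the tested family held no ligand of either. The receptors are carried by the leukocytes whose markers differed between groups, and the part of cell numbers in these counts was not tested.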

How the data were processed

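RNA from 9 mouse tumour samples, 3 each for Lipo-TriTE, Lipo-BiTE and PBS, was sequenced from random-primed, PCR-amplified libraries of fragmented mRNA, per the labels' protocols. The authors deposited raw read counts per gene, with gene positions and lengths, in 1 table of 44806 entries whose identifiers name C57BL/6NJ gene models. The aligner, counter, strand setting and assembly version are each not given in the sources used. Columns named untreated were taken as PBS, the 1 group left, with matching numbers; 0 count columns were not used.

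Counts were fitted in R 4.3.3 with edgeR 4.0.16 (filterByExpr, TMM, robust quasi-likelihood F test, 1 mean per group over all 9 libraries, 6 residual degrees of freedom, median prior 4.99). P-values were adjusted by Benjamini-Hochberg over 16596 genes, with calls under 0.05. SEs were the log2 fold change over the root of F. CPM uses TMM-scaled totals, and RPKM also the deposited length. The floor covers counting error only. The SEs, from the quasi-likelihood fit, and the SDs include the spread among the libraries of a group. Reads carry no molecular identifiers. DESeq2 1.42.0 was an alternative. The procedure was tested on simulated counts. It recovered 38% to 41% of the 2-fold and 82% to 84% of the 4-fold changes put in. A difference of about 2-fold that was not called is thus not shown to be absent. The members and lists were chosen with earlier results of these data known. Values per library are given for every ligand called in at least 1 comparison, others by range or total, with each list's defining marker and receptors of the ligands described; 1 receptor gene is not reported here by name.

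PBS 2 and 3, the most alike pair, still differed beyond counting error (chi-square 4.8 for each degree of freedom).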

Additional observations from a re-analysis of the deposited data

How the results depend on the processing

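Of 19 ligands called with Lipo-TriTE and 18 with Lipo-BiTE against PBS, and of 6 called between the agents, 16, 15 and 3 kept their call in every setting run. Without each library in turn, 14 to 18 ligands were higher than in PBS with Lipo-TriTE and 15 to 19 with Lipo-BiTE, 2 and 0 were lower, and between the agents 1 to 2 were higher and 2 to 4 lower. The count of 1 higher came without Lipo-BiTE 2 or Lipo-TriTE 3, and that of 2 lower without Lipo-BiTE 2. With the replicate block, 18 were higher and 2 lower with Lipo-TriTE, 18 and 0 with Lipo-BiTE, and 2 and 4 between the agents, and it added Ccl24 with Lipo-TriTE (adjusted p = 0.019). The labels give same-numbered samples nothing in common but the number. Deviations of same-numbered libraries correlated at −0.194 to 0.076, and those of other pairs between groups at −0.169 to 0.239. With 3 libraries a group these values cannot show whether samples were paired. In the same order DESeq2 gave 18 and 2, 19 and 0, and 2 and 4, and no filter gave 18 and 2, 18 and 0, and 2 and 5. Total counts without TMM moved the median of all genes by −0.012, −0.133 and 0.122 on the log2 scale.

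Some uncalled values changed sign, and the cause was not tested. In Lipo-TriTE against Lipo-BiTE, Cxcl9 was 0.14 with total counts, 0.01 with no filter, 0.05 with at least 1 CPM in 3 libraries, 0.04 with the 6 libraries of the comparison, 0.15 with the replicate block and 0.04 with DESeq2, and Ccl25 was −0.03 with the block. Leaving out single libraries, the same comparison ran from −0.37 to 0.35 for Cxcl9, −0.47 to 0.32 for Ccl25, −0.78 to 0.11 for Ccl9, −0.16 to 0.50 for Cxcl16 and −0.52 to 0.18 for Ccl7. Cxcl12 ran from −1.16 to 0.17 for Lipo-TriTE against PBS, and Cxcl14 from −0.11 to 1.02 for Lipo-BiTE against PBS. Depth limits the 10 ligands below the filter, those near 3 counts in PBS libraries and Cxcl12, which was near 3 counts in Lipo-BiTE libraries.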
